A study of Mus musculus with 10 samples.

Results

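A set of 10 genes of blood vessel endothelium and VEGF signalling was followed in the mouse distal colorectum, 9 of them made mainly by endothelial cells (Pecam1, Cdh5, Kdr, Flt1, Tek, Tie1, Vwf, Plvap and Emcn) and the last, Vegfa, the ligand of Kdr and Flt1. They were found through the probe sets whose platform gene symbol was 1 of the 10 names, which came to 15 of the 34945 probe sets with a single gene and 10 of the 18193 genes measured. Every value below is a log2 signal of the probe set with the highest mean for that gene, unless another probe set is named. The tests took genes that exceeded the median of 2 or more of the 10 arrays, as 9 of the 10 genes and 12568 of all genes did; Tie1 lay below the median on all 10 arrays, so its values are described without a test.

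Each array held total RNA of a C57BL/6J mouse, 1 sample per array. The groups were Pdgfc-/- mice taken 8 weeks after a local γ-ray dose of 25 Gy, given at 2.14 Gy/min (n = 3), Pdgfc+/+ mice irradiated in the same way (n = 3), Pdgfc-/- mice without irradiation (n = 2) and Pdgfc+/+ mice without irradiation (n = 2). Pdgfc encodes a secreted platelet-derived growth factor, and Pdgfc+/+ mice carry the intact gene; the labels give neither age nor sex, and the knockout is of the whole animal as far as they say. The replicates are called biological, and precision is limited by how few arrays there are. All 8 intestinal epithelial markers lay above the array median on an array of every group. On its brighter probe set Pdgfc lay at 6.26 to 7.15 in irradiated Pdgfc-/- mice against 8.56 to 8.75 in irradiated Pdgfc+/+ mice, and at 5.62 to 6.42 in unirradiated Pdgfc-/- mice against 7.01 to 7.50 in unirradiated Pdgfc+/+ mice. From the Xist transcript, 1 of 3 irradiated Pdgfc-/- arrays (replicate 1) and 3 of 3 irradiated Pdgfc+/+ arrays had the female pattern, against 0 of 2 unirradiated arrays of either genotype. In Pdgfc+/+ mice sex and irradiation therefore cannot be told apart.

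Endothelial cells line all blood vessels and hold together through VE-cadherin (Cdh5) and PECAM-1 (Pecam1). VEGF-A, secreted by epithelial, stromal and immune cells, acts on VEGFR2 (Kdr), the main signalling receptor for endothelial growth and permeability, while VEGFR1 (Flt1) binds the ligand tightly and in its soluble form acts as a decoy. The receptor TIE2 (Tek) responds to angiopoietins and, with its orphan partner TIE1 (Tie1), governs vessel stability. In the gut, the fenestrated capillaries beneath the epithelium carry PLVAP diaphragms.

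The RefSeq promoter table (build GRCm38.p6) held windows for 6 of the 10 genes, Emcn, Tek, Tie1, Kdr, Flt1 and Vegfa. The 250 bases before the tabulated start are shown 5′ to 3′ on the gene's strand for 2 genes whose signal rose after irradiation in both genotypes (Emcn and Tek) and for the 3 VEGF genes whose signal did not pass the test in either (Kdr, Flt1 and Vegfa). Capitals mark every match on either strand to GGGCGG (the GC box), AGGAAG (an ETS-type core), TATAAA (the TATA box) and ACGTG (the hypoxia response core), motifs chosen with the results known.
Emcn, chr3:137340828-137341077, plus strand: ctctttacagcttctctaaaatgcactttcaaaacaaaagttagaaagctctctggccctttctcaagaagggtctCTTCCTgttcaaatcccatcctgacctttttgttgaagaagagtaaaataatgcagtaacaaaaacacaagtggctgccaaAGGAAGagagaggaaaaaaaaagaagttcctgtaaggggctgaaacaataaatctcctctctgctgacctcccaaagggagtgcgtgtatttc
Tek, chr4:94739039-94739288, plus strand: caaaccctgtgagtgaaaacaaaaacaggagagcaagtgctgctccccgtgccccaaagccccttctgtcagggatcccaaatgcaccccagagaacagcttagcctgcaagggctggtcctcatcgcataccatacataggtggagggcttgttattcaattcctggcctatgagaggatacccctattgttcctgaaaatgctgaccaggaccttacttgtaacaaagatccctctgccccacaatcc
Kdr, chr5:75978456-75978705, minus strand: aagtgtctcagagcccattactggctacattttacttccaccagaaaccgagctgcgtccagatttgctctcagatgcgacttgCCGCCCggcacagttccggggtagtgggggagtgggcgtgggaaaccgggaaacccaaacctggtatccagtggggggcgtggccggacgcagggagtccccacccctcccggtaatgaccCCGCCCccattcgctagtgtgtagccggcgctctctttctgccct
Flt1, chr5:147726012-147726261, minus strand: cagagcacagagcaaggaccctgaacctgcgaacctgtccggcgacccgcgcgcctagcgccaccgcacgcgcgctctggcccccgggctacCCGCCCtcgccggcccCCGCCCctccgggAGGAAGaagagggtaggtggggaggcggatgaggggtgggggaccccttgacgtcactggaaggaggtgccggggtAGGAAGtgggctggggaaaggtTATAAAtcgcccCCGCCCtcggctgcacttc
Vegfa, chr17:46032378-46032627, minus strand: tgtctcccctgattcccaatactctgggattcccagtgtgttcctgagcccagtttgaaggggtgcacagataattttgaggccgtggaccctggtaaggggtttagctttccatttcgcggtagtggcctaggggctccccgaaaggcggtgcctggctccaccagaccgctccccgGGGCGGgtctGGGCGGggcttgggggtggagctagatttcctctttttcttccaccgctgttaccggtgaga
No match overlapped another in these windows. The 3 VEGF genes held 2, 3 and 2 GC boxes (Kdr, Flt1 and Vegfa), and Emcn and Tek held 0; of all 32851 promoter windows of this length, 32.7% held at least 1. AGGAAG stood at 2 places in Emcn and 2 in Flt1 (29.5% of all windows), TATAAA at 1 place in Flt1 (12.4%), and ACGTG in none of the 5 (16.6%). The share of G and C was 40.8% in Emcn and 51.2% in Tek, and 61.6%, 70.4% and 59.2% in Kdr, Flt1 and Vegfa, against a median of 52.4% over all windows. A match describes these letters only, and the genes named begin at more than 1 place: the annotated spans of Kdr and Flt1 start upstream of the window shown, those of Emcn and Tek start within it, and Vegfa has a further window inside the gene (chr17:46025164-46025413), which held 1 ACGTG and 1 GC box.

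Irradiation in both genotypes went with higher signals of the genes that mark endothelial identity, junctions and the TIE2 receptor, while the 2 VEGF receptors and VEGF-A itself did not pass the test. In irradiated against unirradiated Pdgfc-/- mice, 6 of the 9 tested genes rose and 0 fell (median log2 difference 1.00); in Pdgfc+/+ mice the same 6 rose and 0 fell (median 1.47). The 6 were Pecam1, Cdh5, Tek, Vwf, Plvap and Emcn. Over all genes tested, 14.0% were called higher and 9.50% lower in Pdgfc-/- mice, with a median difference of 0.01, and 15.8% higher and 8.34% lower in Pdgfc+/+ mice, with a median of 0.07; 9.54% were called higher in both. Every irradiated array lay above every unirradiated one for 7 of the 9 genes in Pdgfc-/- mice (28.4% of all genes) and for 6 of the 9 in Pdgfc+/+ mice (30.8%). A call is a limma Benjamini-Hochberg adjusted p below 0.05 over all genes tested. In these bulk samples more endothelial cells, more RNA per endothelial cell and a different make-up of the dissected tissue cannot be told apart.

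**Figure D1:**
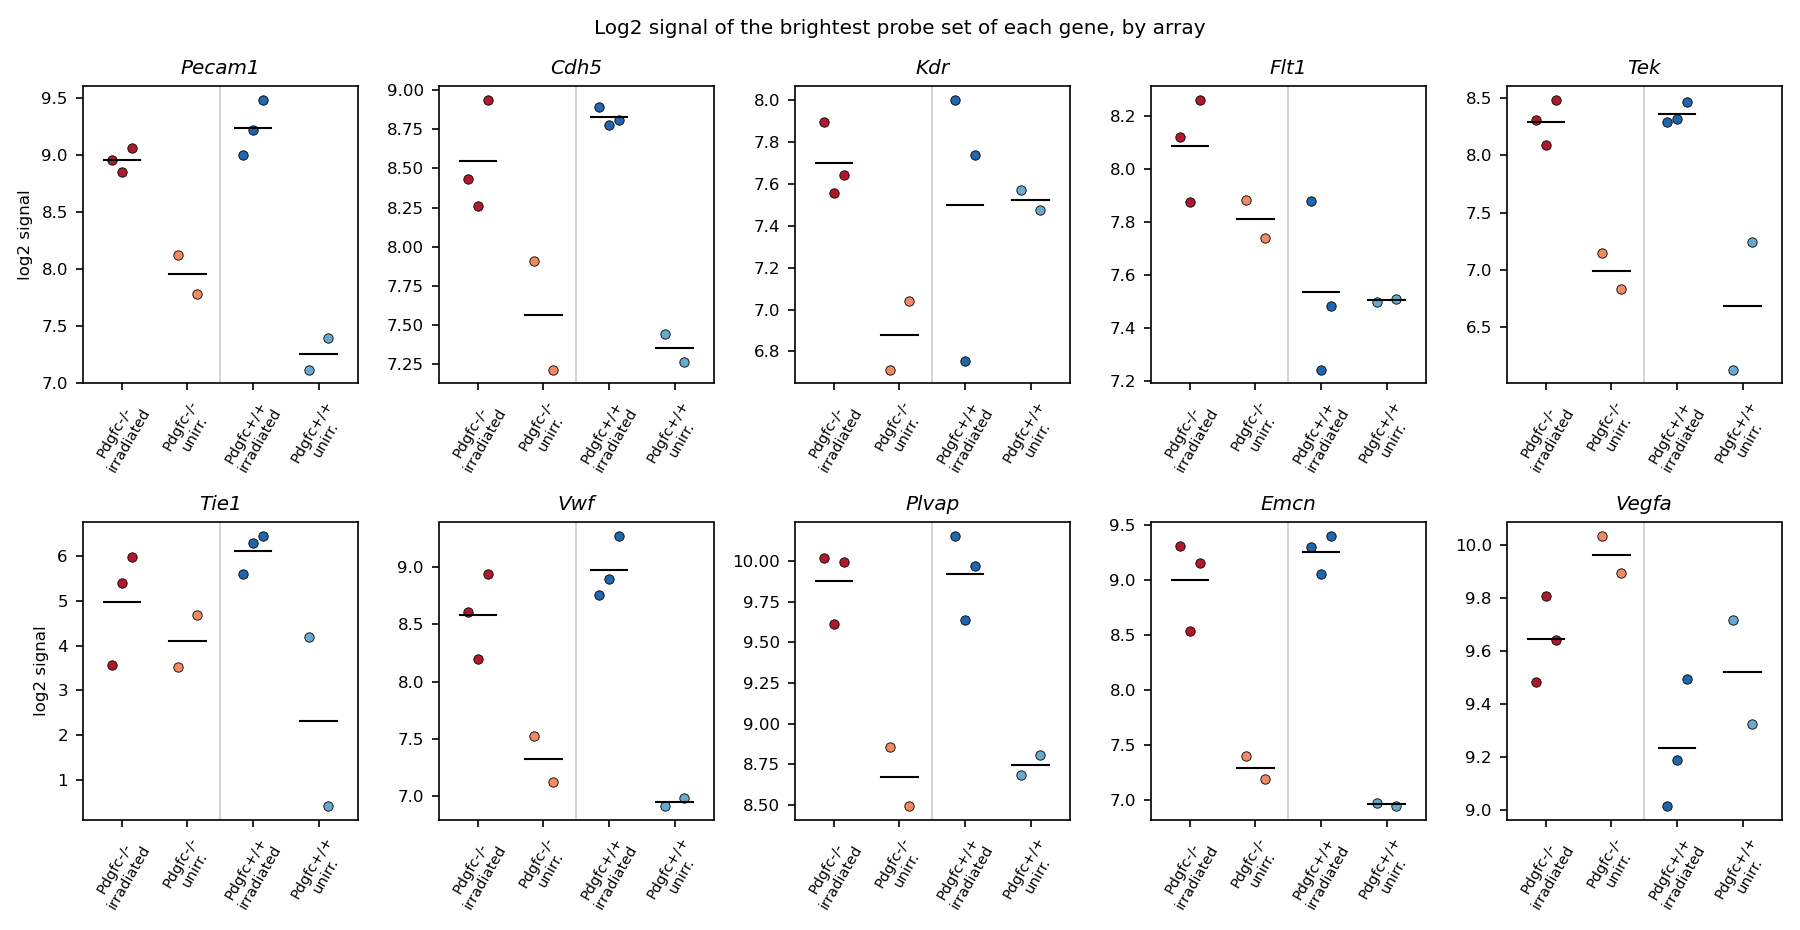
Log2 signal of each of the 10 genes on each array, with 1 panel per gene and its own vertical axis; points are arrays, bars are group means, and the groups run from irradiated to unirradiated within each genotype. The irradiated arrays sit above the unirradiated ones of both genotypes for Pecam1, Cdh5, Tek, Vwf, Plvap and Emcn, and the groups overlap for Flt1 in both genotypes.

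Emcn encodes endomucin, a sialomucin of capillary and venous endothelium (chromosome 3, 137341062 to 137431069), and had the largest rise of the 9 tested genes in each genotype, except that with the sex covariate Vwf (1.98) and Pecam1 (1.98) exceeded it (1.83) in Pdgfc+/+ mice. That covariate rests on 1 female-pattern array, as described below. The Emcn signal was 9.30, 8.54 and 9.15 in irradiated Pdgfc-/- mice, against 7.39 and 7.18 in unirradiated Pdgfc-/- mice. In Pdgfc+/+ mice it was 9.30, 9.05 and 9.40 after irradiation, against 6.97 and 6.94 without. Every irradiated array stood more than 1 log2 unit above every unirradiated one, and the difference was 1.71 ± 0.24 (SE, as for every difference below) in Pdgfc-/- mice (3.27-fold, adjusted p = 0.0015) and 2.29 ± 0.24 in Pdgfc+/+ mice (4.89-fold, adjusted p = 4.9e-04).

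Plvap, the protein of the diaphragms that span endothelial fenestrae (chromosome 8, 71497753 to 71511806), lay at 10.02, 9.61 and 9.99 in irradiated Pdgfc-/- mice, against 8.85 and 8.49 in unirradiated Pdgfc-/- mice. Irradiated Pdgfc+/+ mice had 10.16, 9.64 and 9.97, against 8.69 and 8.81 in unirradiated Pdgfc+/+ mice. The groups did not overlap, and the rises were close in size, at 1.20 ± 0.21 in Pdgfc-/- mice (2.30-fold, adjusted p = 0.0036) and 1.17 ± 0.21 in Pdgfc+/+ mice (2.26-fold, adjusted p = 0.0042).

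Pecam1, the adhesion molecule PECAM-1 of endothelial junctions that platelets and leukocytes also carry (chromosome 11, 106654213 to 106715281), was 8.96, 8.85 and 9.06 in irradiated Pdgfc-/- mice, against 8.12 and 7.78 in unirradiated Pdgfc-/- mice. Irradiated Pdgfc+/+ mice had 9.0, 9.22 and 9.48, against 7.12 and 7.39 in unirradiated Pdgfc+/+ mice. The irradiated arrays of the genotypes overlapped, whereas the unirradiated Pdgfc-/- arrays both stood above the unirradiated Pdgfc+/+ arrays. Its rise was 1.00 ± 0.20 in Pdgfc-/- mice (2.01-fold, adjusted p = 0.008) and 1.98 ± 0.20 in Pdgfc+/+ mice (3.94-fold, adjusted p = 4.5e-04).

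Vwf encodes von Willebrand factor, the clotting glycoprotein stored in endothelial granules and platelets (chromosome 6, 125552948 to 125686679). Its signal was 8.61, 8.19 and 8.94 in irradiated Pdgfc-/- mice, against 7.52 and 7.13 in unirradiated Pdgfc-/- mice. The irradiated Pdgfc+/+ arrays read 8.75, 8.90 and 9.27, against 6.92 and 6.98 on the unirradiated Pdgfc+/+ arrays. No irradiated array overlapped an unirradiated one, with a rise of 1.26 ± 0.26 in Pdgfc-/- mice (2.39-fold, adjusted p = 0.0092) and of 2.02 ± 0.26 in Pdgfc+/+ mice (4.07-fold, adjusted p = 0.001).

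Cdh5, the cadherin of endothelial adherens junctions (chromosome 8, 104101613 to 104144504), was 8.44, 8.26 and 8.94 in irradiated Pdgfc-/- mice, against 7.91 and 7.22 in unirradiated Pdgfc-/- mice. It was 8.89, 8.78 and 8.81 in irradiated Pdgfc+/+ mice, against 7.44 and 7.26 in unirradiated Pdgfc+/+ mice. The irradiated arrays again lay above the unirradiated ones, but the unirradiated Pdgfc-/- arrays were spread more widely than those of Pdgfc+/+ mice. The rise was 0.98 ± 0.26 in Pdgfc-/- mice (1.98-fold, adjusted p = 0.025) and 1.47 ± 0.26 in Pdgfc+/+ mice (2.78-fold, adjusted p = 0.0044). The Pdgfc-/- call was lost under 7 of 21 alternative settings, among them the mean of both Cdh5 probe sets (0.64), the second of which lay below the array median on all arrays.

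Tek, the angiopoietin receptor TIE2 (chromosome 4, 94739086 to 94874976), was 8.31, 8.09 and 8.49 in irradiated Pdgfc-/- mice, against 7.15 and 6.83 in unirradiated Pdgfc-/- mice. In Pdgfc+/+ mice it was 8.30, 8.32 and 8.47 after irradiation, against 6.13 and 7.24 without, so that the 2 unirradiated Pdgfc+/+ arrays stood further apart than any 2 arrays of the other groups. Its rise was 1.30 ± 0.32 in Pdgfc-/- mice (2.47-fold, adjusted p = 0.017) and 1.67 ± 0.32 in Pdgfc+/+ mice (3.19-fold, adjusted p = 0.0058); the Pdgfc-/- call was lost under 4 of 21 alternatives. Tie1, the orphan partner of TIE2 (chromosome 4, 118471191 to 118489849), was dim throughout, at 3.57, 5.41 and 5.98 in irradiated Pdgfc-/- mice, against 3.51 and 4.69 in unirradiated Pdgfc-/- mice. In Pdgfc+/+ mice it was 5.60, 6.29 and 6.45 after irradiation, against 4.19 and 0.41 without. Its groups overlapped in Pdgfc-/- mice (difference 0.88) and not in Pdgfc+/+ mice (3.81), where 1 of the 2 unirradiated arrays, at 0.41, stood far below the other.

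**Figure D2:**
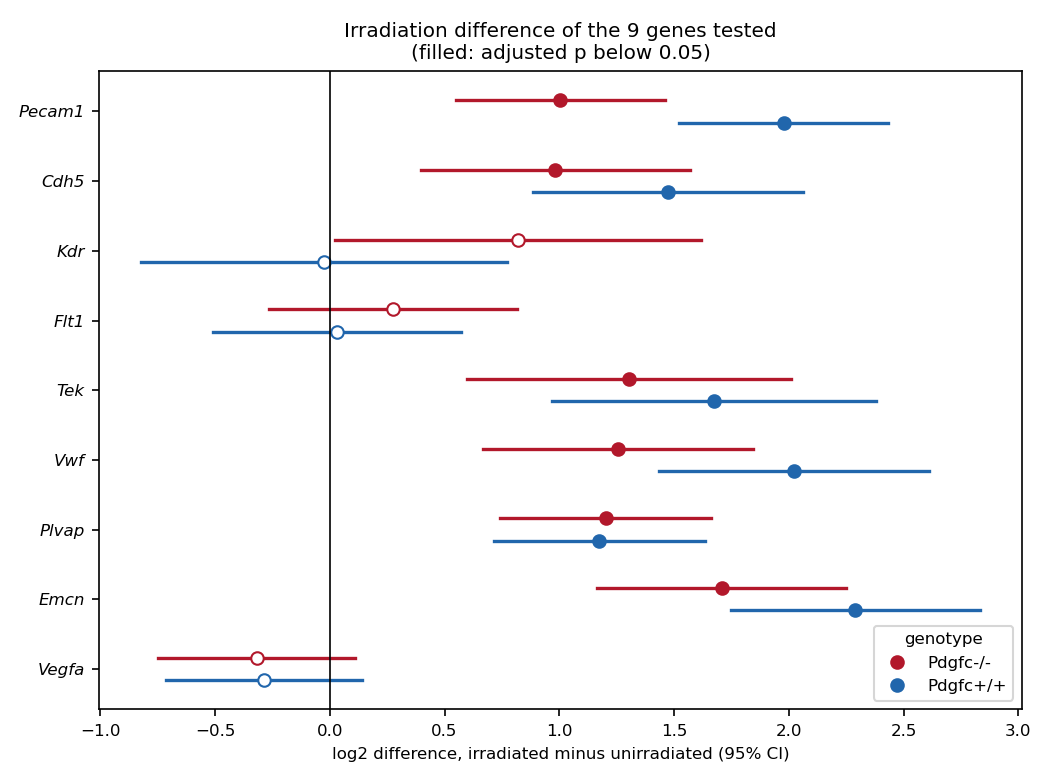
Log2 difference, irradiated minus unirradiated, of the 9 tested genes in each genotype; points are limma estimates, lines their 95% confidence intervals, and open points have an adjusted p not below 0.05. Emcn has the largest difference in both genotypes (1.71 in Pdgfc-/-, 2.29 in Pdgfc+/+), and the intervals of Flt1 and Vegfa include 0 in both.

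Kdr, the VEGF-A receptor VEGFR2 (chromosome 5, 75932827 to 75979072), did not rise with the 6 called genes in Pdgfc+/+ mice, and neither did Flt1 on its brightest probe set. Kdr was 8.0, 6.75 and 7.74 in irradiated Pdgfc+/+ mice, against 7.57 and 7.47 in unirradiated Pdgfc+/+ mice, a difference of -0.02 ± 0.36 (95% interval -0.82 to 0.77, adjusted p = 0.97). In Pdgfc-/- mice it was 7.90, 7.56 and 7.64 after irradiation, against 6.71 and 7.04 without. Those groups did not overlap, and the difference of 0.82 ± 0.36 had an unadjusted p of 0.0452 and an adjusted p of 0.12. Replicate 2 of irradiated Pdgfc+/+ mice weighed on both values. Without it the Pdgfc+/+ difference was 0.35 and still did not pass (adjusted p = 0.42), and the Pdgfc-/- difference passed at an adjusted p of 0.0469 because its SE, from the shared estimate of spread, was 0.25.

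Flt1, the receptor VEGFR1 (chromosome 5, 147561604 to 147726438), had 4 probe sets. The brightest, 1451756_at, gave 8.12, 7.88 and 8.26 in irradiated Pdgfc-/- mice, against 7.88 and 7.74 in unirradiated Pdgfc-/- mice, and the groups met at 7.88. In Pdgfc+/+ mice it gave 7.88, 7.24 and 7.48 after irradiation, against 7.50 and 7.51 without. The differences were 0.27 ± 0.24 in Pdgfc-/- mice (95% interval -0.27 to 0.82, adjusted p = 0.44) and 0.03 ± 0.24 in Pdgfc+/+ mice (-0.51 to 0.57, adjusted p = 0.94). Both other tested probe sets, fitted with every probe set of the arrays, read higher after irradiation without passing. Of these, 1419300_at differed by 0.42 ± 0.25 in Pdgfc-/- mice (adjusted p = 0.26) and by 0.59 ± 0.25 in Pdgfc+/+ mice (adjusted p = 0.13), with no overlap in either genotype. The other, 1440926_at, differed by 0.39 ± 0.36 in Pdgfc-/- mice (adjusted p = 0.47) and by 0.77 ± 0.36 in Pdgfc+/+ mice (adjusted p = 0.17), with overlap in Pdgfc-/- mice and none in Pdgfc+/+ mice. The dimmest probe set was not tested and read 6.68 to 7.08 in irradiated against 5.89 and 6.58 in unirradiated Pdgfc-/- mice, and 6.47 to 6.90 in irradiated against 5.90 and 6.36 in unirradiated Pdgfc+/+ mice, again without overlap. Which of them detect the soluble and which the membrane form of the receptor was not analysed here.

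**Figure D3:**
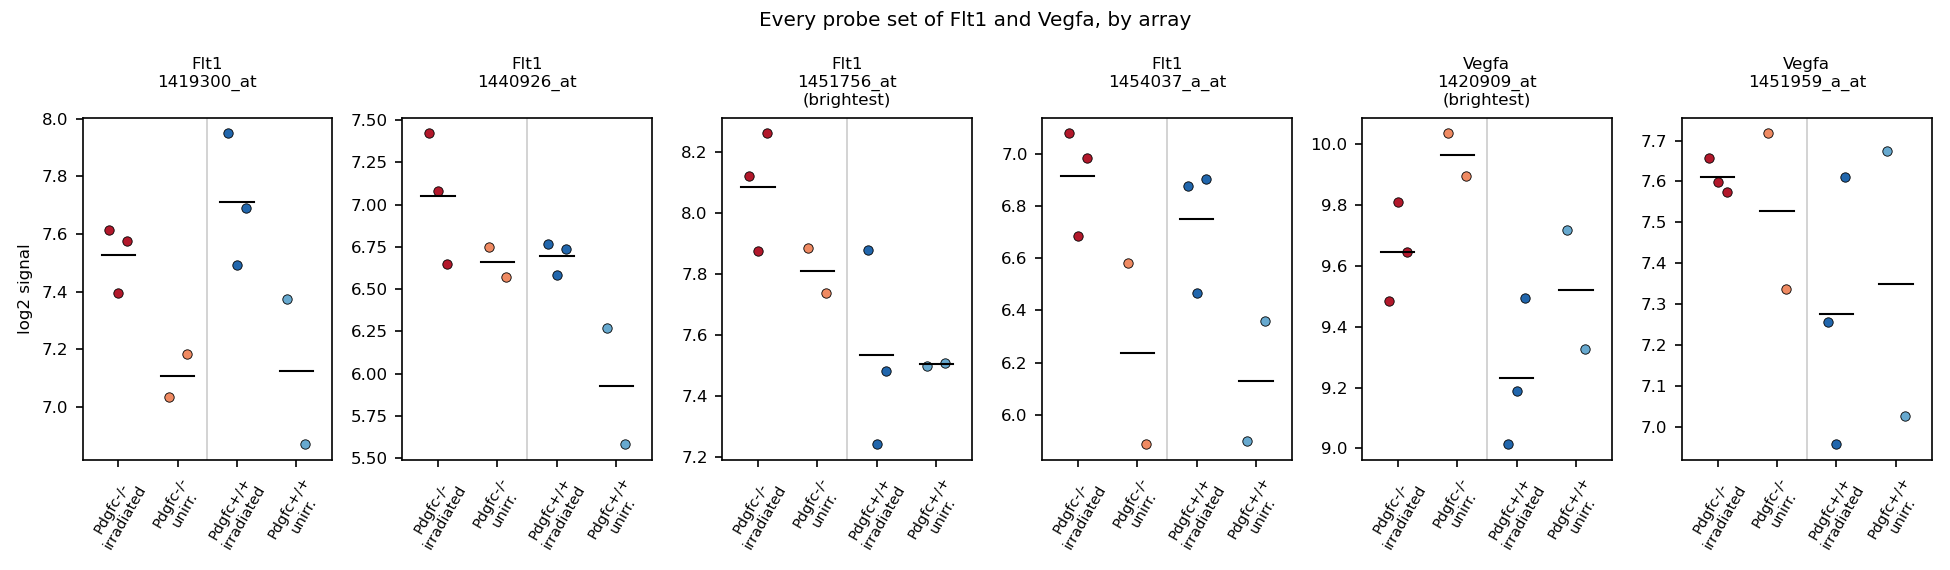
Log2 signal by array of every Flt1 and Vegfa probe set, with 1 panel per probe set and its own vertical axis; points are arrays and bars group means. The Flt1 probe sets disagree in how far the irradiated arrays stand above the unirradiated ones, with 1451756_at overlapping and 1419300_at not overlapping in either genotype.

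Vegfa, the ligand (chromosome 17, 46016993 to 46032377), read lower after irradiation on its brighter probe set without passing. That probe set, 1420909_at, was 9.48, 9.81 and 9.64 in irradiated Pdgfc-/- mice, against 10.04 and 9.89 in unirradiated Pdgfc-/- mice. Irradiated Pdgfc+/+ mice gave 9.01, 9.19 and 9.50, against 9.72 and 9.33 in unirradiated Pdgfc+/+ mice. The irradiated Pdgfc-/- arrays all stood below the unirradiated ones, as for 25.6% of all genes, and the Pdgfc+/+ arrays overlapped. The differences, -0.32 ± 0.19 in Pdgfc-/- mice (95% interval -0.75 to 0.11, adjusted p = 0.25) and -0.29 ± 0.19 in Pdgfc+/+ mice (-0.72 to 0.14, adjusted p = 0.30), did not pass. The second probe set, 1451959_a_at, overlapped between irradiated and unirradiated arrays, at 7.58 to 7.66 against 7.34 and 7.72 in Pdgfc-/- mice and at 6.96 to 7.61 against 7.03 and 7.67 in Pdgfc+/+ mice. Its differences were 0.08 ± 0.28 in Pdgfc-/- mice (95% interval -0.55 to 0.71, adjusted p = 0.86) and -0.07 ± 0.28 in Pdgfc+/+ mice (-0.71 to 0.56, adjusted p = 0.89), so the data leave room for a change in either direction.

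The signals of these 3 genes were also set against Pecam1 on the same array, a comparison chosen with the values known. Vegfa minus Pecam1 averaged 0.34 ± 0.41 on the 6 irradiated arrays and 2.14 ± 0.32 on the 4 unirradiated arrays (SD), a difference of -1.80 (-1.32 in Pdgfc-/- and -2.27 in Pdgfc+/+ mice). Flt1 minus Pecam1 averaged -1.28 ± 0.56 on the irradiated arrays and 0.06 ± 0.26 on the unirradiated ones, a difference of -1.34 (-0.73 and -1.95 in the same order of genotypes). Kdr minus Pecam1 averaged -1.50 ± 0.55 and -0.40 ± 0.83 on irradiated and unirradiated arrays, a difference of -1.09, which was -0.19 in Pdgfc-/- and -2.00 in Pdgfc+/+ mice. Because the genes were picked for not having risen and Pecam1 for having risen, these are descriptions without a test. In Pdgfc-/- mice Kdr and Pecam1 differed by similar amounts (0.82 and 1.00), so the pooled Kdr value comes mostly from Pdgfc+/+ mice, where sex and irradiation coincide.

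Because the knockout group has irradiated arrays with the male pattern, irradiation could be read there within that pattern. The 2 male-pattern irradiated arrays were set against the 2 unirradiated ones, which are all male-pattern. Pdgfc-/- differences were 1.00 for Pecam1, 1.04 for Cdh5, 1.30 for Tek, 1.24 for Vwf, 1.13 for Plvap and 1.55 for Emcn. None of these 6 overlapped. Kdr (0.72) and the dim, untested Tie1 (1.59) also stood above without overlap, Vegfa (-0.24) stood below, and Flt1 (0.26) overlapped. The 6 genes had been called with these same arrays. The share of all genes without overlap at 2 against 2 arrays was not counted. With the sex pattern as a covariate, 5 of the 6 genes stayed past the threshold in Pdgfc-/- mice (Cdh5 had an adjusted p of 0.0537) and 0 of the 6 in Pdgfc+/+ mice, where the estimates were 0.95 to 1.98 and the adjusted p 0.079 to 0.32. The sex term of that fit rests on the irradiated Pdgfc-/- arrays alone, 1 with the female pattern against 2 with the male. It is taken as equal in both genotypes, so the Pdgfc+/+ estimates depend on that 1 array. A single array also weighed on the Pdgfc-/- calls: without replicate 2 of unirradiated Pdgfc-/- mice, 2 of the 6 genes passed, Plvap and Emcn.

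No gene of the set passed the test between genotypes. In irradiated mice limma called 0 of 12568 genes (0.00%), with 500 at an unadjusted p below 0.05, and in unirradiated mice it called 1.23%. After irradiation the differences, Pdgfc-/- minus Pdgfc+/+, ran from -0.39 for Vwf to 0.55 for Flt1 over the 9 tested genes, with a median of -0.07. The female pattern was on 1 of 3 irradiated Pdgfc-/- and 3 of 3 irradiated Pdgfc+/+ arrays, so genotype and sex are only partly separable in this comparison. Flt1 (0.55 ± 0.22, unadjusted p = 0.03) and Vegfa (0.41 ± 0.17, unadjusted p = 0.037) were the 2 with an unadjusted limma p below 0.05, and each had an adjusted p of 1. The genotypes overlapped for both, and Flt1 probe set 1440926_at read 0.36 ± 0.32 and 1419300_at -0.18 ± 0.22, the opposite sign. Without irradiation the differences ran from -0.64 ± 0.39 for Kdr to 0.70 ± 0.22 for Pecam1, with a median of 0.31 against 0.07 over all genes. For Pecam1 the unadjusted p was 0.011 and the adjusted p 0.16, and for Vegfa, at 0.44 ± 0.21, they were 0.061 and 0.33. The unirradiated Pdgfc-/- arrays lay above the Pdgfc+/+ arrays for 5 of the 9 genes, Pecam1, Flt1, Vwf, Emcn and Vegfa, as they did for 28.9% of all genes, and below them for Kdr, as for 18.8%.

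**Figure D4:**
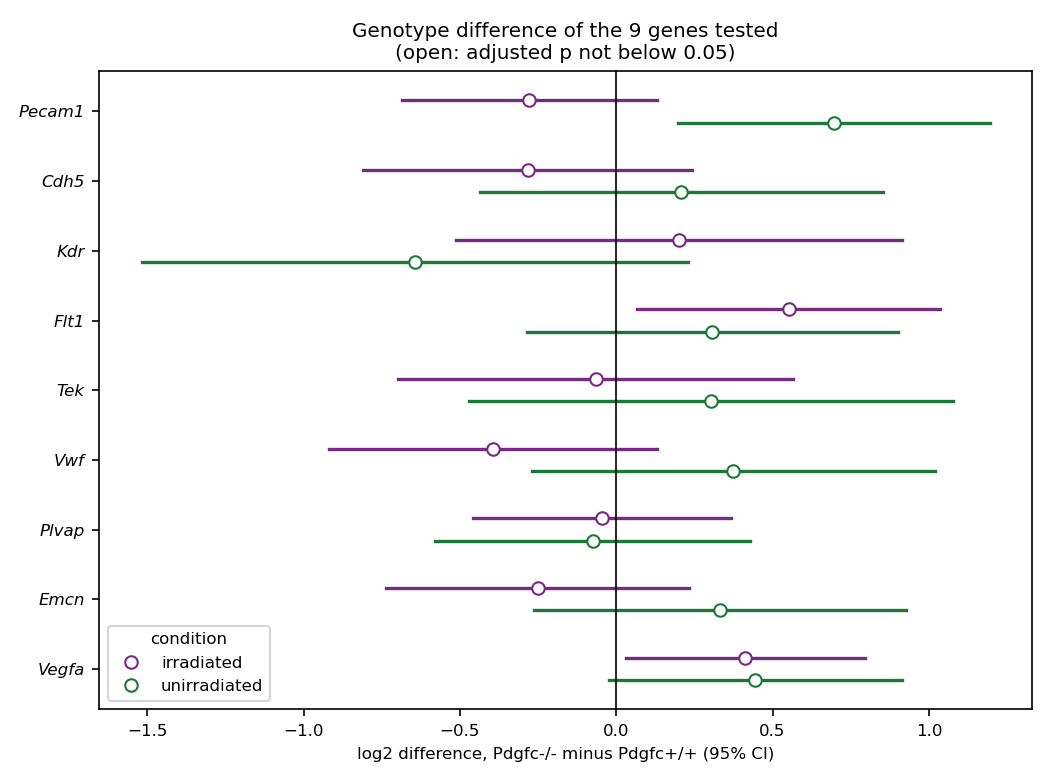
Log2 difference, Pdgfc-/- minus Pdgfc+/+, of the 9 tested genes in irradiated and unirradiated mice; points are limma estimates, lines their 95% confidence intervals, and all points are open because no adjusted p was below 0.05. The interval of Pecam1 lies above 0 without irradiation (0.20 to 1.19) and includes 0 after it, and that of Vegfa is centred near 0.4 in both.

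The difference between the irradiation effects of the genotypes was tested as an interaction and was called for 0.207% of all genes and for none of the 9. The uneven sex pattern of the irradiated groups enters the interaction too. The smallest p among them was that of Pecam1, whose interaction, Pdgfc-/- minus Pdgfc+/+, was -0.97 ± 0.29 log2 units (limma adjusted p = 0.29, unadjusted p = 0.0073). For Vwf the interaction was -0.77 ± 0.37 (adjusted p = 0.52), for Emcn -0.58 ± 0.34 (adjusted p = 0.60) and for Kdr 0.84 ± 0.50 (adjusted p = 0.61). Plvap and Vegfa were near 0, at 0.03 ± 0.29 and -0.03 ± 0.27, with 95% intervals of -0.62 to 0.68 and -0.64 to 0.57.

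Genes that work with the set were read from lists by role, and their calls are over all genes tested. Of all genes tested, 14.0% were called higher after irradiation in Pdgfc-/- mice and 15.8% in Pdgfc+/+ mice. Of 6 tested other VEGF ligands and receptors, 4 rose and 0 fell in irradiated Pdgfc-/- mice (median 0.81), and 5 rose and 0 fell in irradiated Pdgfc+/+ mice (median 1.34). Flt4, the lymphatic receptor VEGFR3, rose by 1.81 ± 0.26 in Pdgfc-/- and 2.16 ± 0.26 in Pdgfc+/+ mice. Its ligands rose too, Vegfd by 1.48 ± 0.32 and 1.84 ± 0.32 and Vegfc by 0.69 ± 0.21 and 1.11 ± 0.21 in the same order. The co-receptor Nrp1 rose by 0.94 ± 0.28 in Pdgfc-/- and 1.58 ± 0.28 in Pdgfc+/+ mice, and Vegfb, a ligand of VEGFR1, was at 0.14 (adjusted p = 0.74) in Pdgfc-/- mice and rose by 0.94 in Pdgfc+/+ mice. Pgf, a further VEGFR1 ligand, was too dim to test. In the angiopoietin group, Ptprb, the phosphatase that acts on TIE2, rose by 0.96 ± 0.24 and 1.23 ± 0.24. Angpt2, the context-dependent TIE2 ligand of endothelial cells, was at 0.15 (adjusted p = 0.71) in Pdgfc-/- mice and rose by 0.84 ± 0.27 in Pdgfc+/+ mice (adjusted p = 0.0457), and the agonist Angpt1 did not pass in either.

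Other pan-endothelial genes rose for 11 of 21 in irradiated Pdgfc-/- mice (median 1.04) and for 18 of 21 in irradiated Pdgfc+/+ mice (median 1.28), and none fell. Over all genes tested, 14.0% and 15.8% were called higher. Of the 21, 4 lay below the median on every unirradiated Pdgfc-/- array and 5 on every unirradiated Pdgfc+/+ array, against 0 in either irradiated group. Such genes could pass the filter through their irradiated arrays, so these counts and medians may in part be set by it. In the venous list below it was 5 and 2 of 9, against 1 in each irradiated group. The progenitor and endothelial glycoprotein Cd34 rose by 1.90 ± 0.26 in Pdgfc-/- and 1.78 ± 0.26 in Pdgfc+/+ mice, the matrix protein Mmrn2 by 1.20 ± 0.20 and 2.01 ± 0.20, and the tight junction gene Cldn5 by 1.71 ± 0.31 and 2.80 ± 0.31. The ETS factor Erg was at 1.34 ± 0.53 (adjusted p = 0.097) in Pdgfc-/- mice and rose by 4.23 ± 0.53 in Pdgfc+/+ mice, but its unirradiated means of 5.93 in Pdgfc-/- and 3.17 in Pdgfc+/+ mice lay below the lowest array median of 6.64, so neither size is certain. Of 8 venous and activated endothelial genes 5 rose and 0 fell in each genotype (medians 1.16 and 1.37): the leukocyte adhesion genes Icam1 (3.20 ± 0.28 in Pdgfc-/-, 2.39 ± 0.28 in Pdgfc+/+), Vcam1 (2.38 ± 0.35 and 1.46 ± 0.35) and Selp (1.96 ± 0.57 and 3.02 ± 0.57), the venular chemokine receptor Ackr1 and the apelin receptor Aplnr. Icam1 and Vcam1 are also made by other cells. Arterial and tip cell genes showed no common direction. Of 5 tested, none passed in Pdgfc-/- mice (median 0.17), whereas in Pdgfc+/+ mice the connexin Gja4 rose by 1.29 ± 0.30 and the ephrin Efnb2 and the receptor Notch4 fell by 0.88 and 0.96. The 4 tested lymphatic genes, Lyve1, Reln, Mmrn1 and Pdpn, all rose in both genotypes (medians 2.51 and 2.43).

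Mural cells wrap vessels, and 2 of 7 of their genes rose in irradiated Pdgfc-/- mice (median 0.47) and 4 of 7 in irradiated Pdgfc+/+ mice (median 0.86), against 14.0% and 15.8% of all genes. The potassium channel regulator Abcc9 rose by 1.14 ± 0.27 in Pdgfc-/- and 1.34 ± 0.27 in Pdgfc+/+ mice and the receptor Notch3 by 0.73 ± 0.22 and 0.98 ± 0.22, while the abundant pericyte gene Rgs5 was at 0.37 and 0.27 and passed in neither. Vegfa is usually counted among hypoxia-inducible genes. A list of such genes, which also holds the hypoxia-inducible factor genes Hif1a and Epas1, had 12 tested members. Of these, 2 of 12 fell in Pdgfc-/- mice (median -0.22) and 5 of 12 in Pdgfc+/+ mice (median -0.38), and none rose. The 5 included Hif1a (-0.56). Over all genes 9.50% and 8.34% were called lower, and 2 of 12 is near that background. Car9, a carbonic anhydrase, fell by 1.13 ± 0.23 in Pdgfc-/- and by 1.50 ± 0.23 in Pdgfc+/+ mice. The glucose transporter Slc2a1 was at -0.66 (adjusted p = 0.071) in Pdgfc-/- mice and fell by 1.21 in Pdgfc+/+ mice. Genes with antiangiogenic products rose for 5 of 6 in Pdgfc-/- mice (median 1.57) and 4 of 6 in Pdgfc+/+ mice (median 1.52). They include Col18a1, the source of endostatin, at 1.18 ± 0.27 and 1.63 ± 0.27, Thbs2 at 1.31 ± 0.32 and 1.32 ± 0.32, and the interferon-induced chemokine Cxcl9 at 6.60 ± 0.28 and 3.19 ± 0.28. Cxcl9 and Cxcl10 were lower in unirradiated Pdgfc-/- than in unirradiated Pdgfc+/+ mice, by -4.14 ± 0.30 (adjusted p = 3.3e-04) and -3.23 ± 0.61 (adjusted p = 0.041), in a comparison where 0.804% of all genes were called lower. The Cxcl9 interaction of 3.41 ± 0.39 passed too (adjusted p = 0.012), in a direction called for 0.175% of all genes. In unirradiated Pdgfc-/- mice Cxcl9 and Cxcl10 had means of 3.22 and 4.15, below the lowest array median of 6.64, so the sizes of all differences taken against that group are uncertain.

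**Figure D5:**
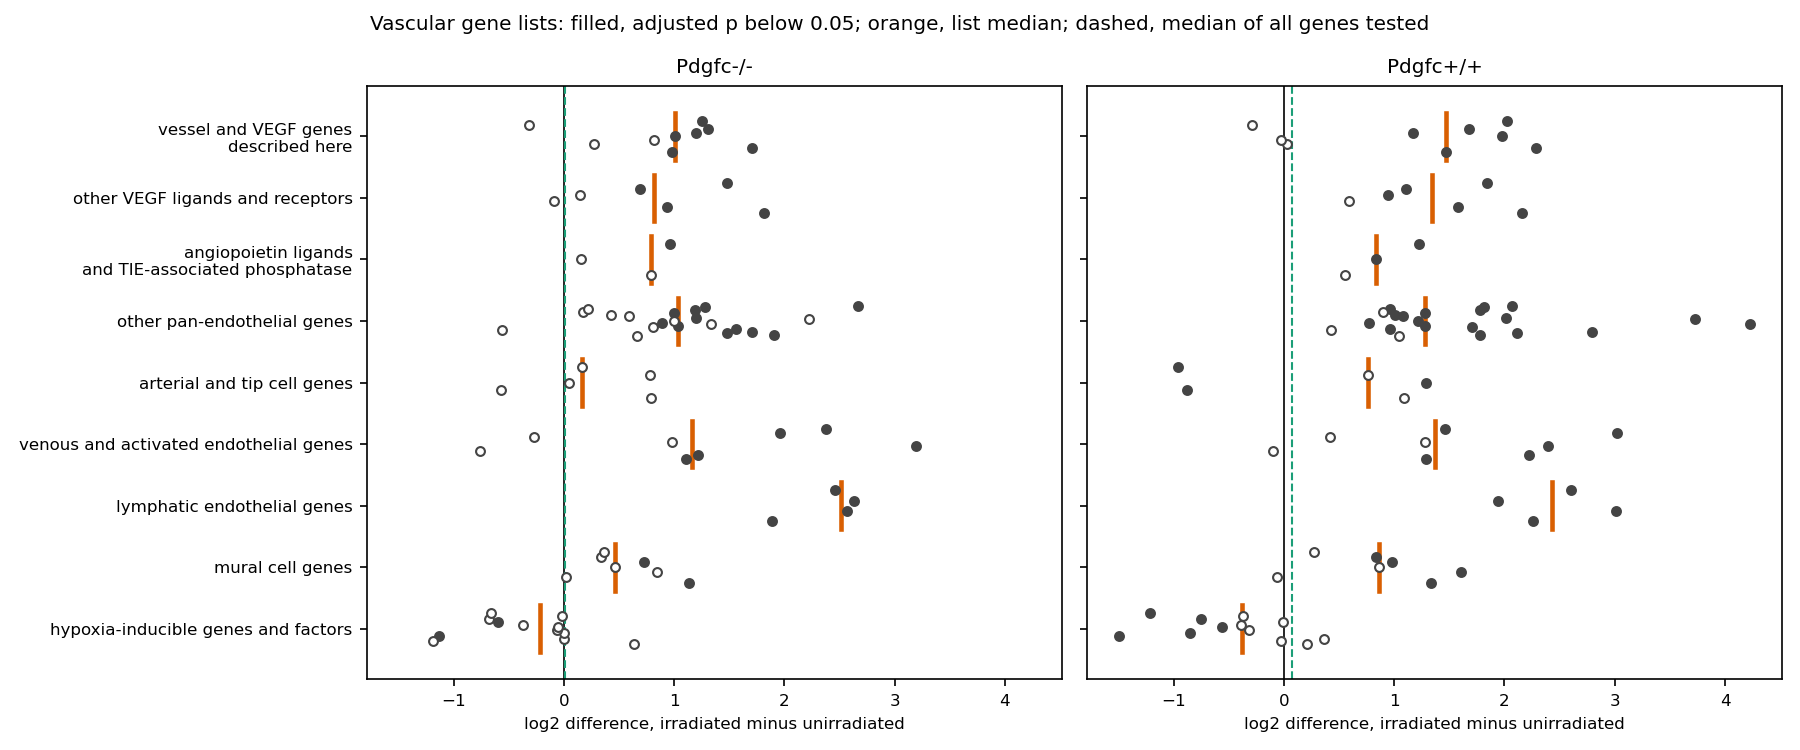
Log2 difference, irradiated minus unirradiated, of each tested gene in the vascular lists, by genotype; filled points have an adjusted p below 0.05, orange bars are list medians and the dashed line is the median of all genes tested. The lymphatic list has the highest median (2.51 in Pdgfc-/-, 2.43 in Pdgfc+/+) and the hypoxia list the lowest (-0.22 and -0.38).

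Markers of other cells moved with irradiation in the same arrays. For the counts below, 14.0% of all genes tested were called higher in Pdgfc-/- mice and 15.8% in Pdgfc+/+ mice. The summed linear signal of 7 leukocyte markers was 13940 to 23070 in irradiated and 1694 to 3240 in unirradiated Pdgfc-/- mice, and 22290 to 31890 in irradiated and 3666 to 3919 in unirradiated Pdgfc+/+ mice. In each genotype 6 of 6 tested markers rose. Of the 7, 3 lay below the median on every unirradiated Pdgfc-/- array and 2 on every unirradiated Pdgfc+/+ array, against 1 in each irradiated group. Such markers could pass the filter through their irradiated arrays, so this count may in part be set by it. For 5 platelet and megakaryocyte markers the sums were 6146 to 20460 against 865.1 to 950 in Pdgfc-/- mice and 2441 to 29280 against 883.2 to 1075 in Pdgfc+/+ mice, with 2 and 3 of 4 tested markers called higher. Of these 5, 2 and 3 lay below the median on every unirradiated array of the same genotypes, against 1 in each irradiated group, so the filter bears on them too. The chemokine Ppbp had by far the largest difference, at 8.59 and 7.93, against a list median of 1.03 in Pdgfc-/- and 1.51 in Pdgfc+/+ mice, and Itga2b was at 0.00 and 0.22. Leukocytes and platelets also express Pecam1, and platelets Vwf. Adipocyte markers summed to 5194 to 28160 against 1916 to 2769 in Pdgfc-/- mice and to 17510 to 37000 against 1414 to 1466 in Pdgfc+/+ mice. Squamous epithelial markers, of which 7 of 7 in unirradiated Pdgfc-/- and 6 of 7 in unirradiated Pdgfc+/+ mice lay below the median on every array, reached 11950 to 47470 in irradiated Pdgfc-/- and 29960 to 64390 in irradiated Pdgfc+/+ mice, against 250.5 to 267.1 and 193 to 441 without irradiation. The 8 intestinal epithelial markers summed to 84770 to 131800 after irradiation against 151700 to 168600 without in Pdgfc-/- mice, and to 100900 to 108100 against 158700 to 197200 in Pdgfc+/+ mice. Of 8 fibroblast markers 8 rose in each genotype, and of 8 smooth muscle markers 0 passed in either. The 8 striated muscle markers summed to 20230 to 49880 after irradiation against 4499 to 6097 without in Pdgfc-/- mice (2 of 8 called higher, median 2.86), and to 920.8 to 37440 against 654.5 to 827.3 in Pdgfc+/+ mice (5 of 8, median 4.76). Of these 8, 2 lay below the median on every unirradiated Pdgfc-/- array and 6 on every unirradiated Pdgfc+/+ array, against 0 after irradiation. Their counts and medians may therefore also be set in part by the filter. Between genotypes all 8 were higher in Pdgfc-/- mice in value, with medians of 2.14 after irradiation and 3.63 without, and 0 passed in limma. The 3′ minus 5′ difference of the Gapdh control probe sets, irradiated against unirradiated, was -0.47 to -0.35 against -0.23 to -0.22 in Pdgfc-/- mice and -0.54 to -0.41 against -0.32 to 0.02 in Pdgfc+/+ mice. That of Actb was 0.49 to 0.58 against 0.63 to 0.65 in Pdgfc-/- mice and overlapped in Pdgfc+/+ mice, at 0.44 to 0.58 against 0.35 to 0.66. Whether exactly the same region was dissected in every group is not given. The part of these cells, of the dissected region and of RNA integrity in the vessel gene differences was not tested.

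Among all genes tested outside the set, those whose pattern was most like the mean of the 9 endothelial genes over the 10 arrays were Rcbtb2, Nfatc1, St8sia6, Lama4 and Mmrn2, each with a Pearson r of 0.98. That mean includes the untested Tie1, which lay below the median on all 10 arrays and ran from 0.41 to 6.45. Its wide spread weighs on the ranking and on the r values. The arrays fall into an irradiated and an unirradiated cluster, which these r values share; for deviations from the group means, r was 0.69, 0.83, 0.76, 0.73 and 0.61 in that order. Lama4 encodes a laminin chain of vessel basement membranes and Nfatc1 a calcium-regulated transcription factor. Most like Vegfa were Mtcl1 (0.95), Zfp866 (0.93), Iqcc and Fbxl17 (0.92 each) and Zfp953 (0.91). Within the set, Pecam1 ran closest to Vwf (r = 0.98 over the 10 arrays, 0.82 for deviations from group means) with lower values for Kdr (0.23 and -0.22), Flt1 (0.22 and -0.08) and Vegfa (-0.37 and 0.28).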

How the data were processed

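Total RNA of distal colorectum was hybridised to 10 Affymetrix arrays, 1 per sample. The authors made the signals with MAS5, per the submitters' processing notes (no version is stated). What was deposited is a log2 signal, judged from its range, since every array has the usual MAS5 trimmed mean on the linear scale; detection calls were not used here. MAS5 spreads dim signals widely, so large differences of dim genes are uncertain, and the few arrays limit the precision.

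No further scaling was applied. A gene was represented by its brightest probe set, with symbols updated by gene ID from GRCm38.p6. Differences came from a limma fit (version 3.58.1, R 4.3.3) of 4 group means to all arrays, with a mean-dependent variance prior and Benjamini-Hochberg adjustment over 12568 genes at 0.05; the fit was tested on simulated data. All 10 genes and their probe sets are reported, with up to 4 members per list and comparison by smallest p, the 5 genes most alike in pattern, and Pdgfc. Vegfb, Pgf, Angpt1, Rgs5 and Itga2b, outside that rule, were chosen after their values were seen. The members and lists were chosen with earlier results of these data known. Alternatives were quantile normalization, pseudocounts of 16 and 64, no filter, no trend, array weights, other probe set rules, a replicate block, only the groups compared, the sex pattern as a covariate, and leaving out each array. Same-numbered samples did not deviate together (r from -0.20 to 0.16), so the numbers do not pair them.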

Additional observations from a re-analysis of the deposited data

How the results depend on the processing

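The 6 genes that rose kept their direction in both genotypes under all 21 alternatives. In Pdgfc+/+ mice each passed in 20 of 21, the exception being the sex covariate (0 of 6 called, adjusted p 0.079 to 0.32). In Pdgfc-/- mice Plvap and Emcn passed in 21 of 21, Pecam1 and Vwf in 20, Tek in 17 and Cdh5 in 14; leaving out 1 array gave 2 (without replicate 2 of unirradiated Pdgfc-/- mice) to 7 (without replicate 2 of irradiated Pdgfc+/+ mice) called genes. Without the filter Tie1 had an adjusted p of 0.041 in Pdgfc+/+ and 0.67 in Pdgfc-/- mice.

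Estimates near 0 changed sign. For irradiation in Pdgfc+/+ mice, Flt1 was -0.29 after quantile normalization, -0.0185 with array weights, -0.0231 with the sex covariate and -0.0004 with the replicate block. It was -0.14 to 0.18 without 1 array, and over all 21 alternatives it ran from -0.29 to 0.50. Kdr was 0.0017 with a pseudocount of 64 and -0.28 to 0.35 without 1 array. For genotype after irradiation, array weights gave Tek 0.0132 and Plvap 0.0678, the sex covariate gave Plvap 0.10 and Emcn 0.0563, and leaving out 1 array gave Kdr -0.17 to 0.45, Tek -0.16 to 0.0382 and Plvap -0.19 to 0.0872. Without irradiation, leaving out 1 array gave Cdh5 -0.14 to 0.55, Tek -0.25 to 0.86 and Plvap -0.26 to 0.11. For the interaction, Vegfa was 0.0652 after quantile normalization and 0.063 for the mean of probe sets, Flt1 was -0.0598 for that mean, and leaving out 1 array gave Tek -0.93 to 0.19, Plvap -0.15 to 0.21 and Vegfa -0.23 to 0.16. The causes were not tested.

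Counts over all genes moved by more than 1.5 times as follows. Irradiation in Pdgfc+/+ mice called 3028 genes, against 4870 over every probe set, 1995 with the replicate block, 16 with the sex covariate and 1327 to 3475 without 1 array. In Pdgfc-/- mice it called 2957, against 5148 over every probe set, 1706 with the sex covariate and 1188 to 3597 without 1 array. Genotype without irradiation called 154 (34.4% higher, 23.3% after quantile normalization), against 276 over every probe set, 70 with the replicate block and 41 to 257 without 1 array. After irradiation 0 to 3 were called without 1 array. The interaction called 26, against 16 with a pseudocount of 64, 10 without the trend, 49 over every probe set, 3 with the replicate block, 4 with the sex covariate and 14 to 35 without 1 array. Where an array was left out of a pair, its partner was taken to vary as arrays elsewhere do. The replicate block is shown although nothing in the labels pairs the samples.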
